A study of Mus musculus with 8 samples.

Results

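The peaks of 5-hydroxymethylcytosine described here are those of induced neurons at 3 dpi and at 5 dpi, split by whether a place was listed on both days. They number 2338, with 1238 at 3 dpi and 1100 at 5 dpi, of 181581 peaks in the 6 peak lists of the series. A peak counts as kept when it shares at least 1 bp with a peak of the other day, as lost when it was listed at 3 dpi alone, and as new when it was listed at 5 dpi alone. Of the 3 dpi peaks 499 were kept and 739 lost, and of the 5 dpi peaks 485 were kept and 615 new. The words lost and new describe the lists: a place without a peak has no peak value on that day, and its level there is not known from the peak list.

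The series follows mouse fibroblasts of the ICR strain on their way to neurons, with hMeDIP-seq, in which an antibody captures DNA fragments that carry the mark before sequencing. The induced neurons at 1, 3, 5 and 7 dpi (a unit the labels leave unexplained) were made from mouse embryonic fibroblasts (MEFs) and grown in neuronal medium. MEFs from E13.5 embryos were the negative control, and hippocampal neurons from pups 1 day old the positive one. The labels put all cells at passages 3 to 5 and give no factor or vector for the conversion. Each group is 1 library, so no difference below has a replicate check and none has a p-value. Intervals are exact at 95%, take peaks as independent and cover counting error only. A further 2 input libraries were not analysed here. The files give no total reads.

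5-Hydroxymethylcytosine is made when TET enzymes oxidise methylated cytosine, mostly where a cytosine stands before a guanine. It is a step on the way to unmethylated cytosine and also a lasting mark, abundant in the DNA of neurons, where it is found in gene bodies and at enhancers. In cells that divide it is diluted unless it is made again.

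Sequences were at hand for the windows around transcription start sites (TSSs). Those printed are examples chosen after their values were seen. They show the CGs (a cytosine before a guanine) under single kept, lost and new promoter peaks, and do not compare the kinds. The windows are RefSeq's on GRCm38.p6, the assembly behind mm10, with 250 bases before and 50 after each start. They are printed 5′ to 3′ on the strand of the gene, with every CG in capitals. Shown are the promoter of Vmn2r29, a vomeronasal receptor gene with a kept peak (minus strand, chr7:7278240-7278539), those of the semaphorin gene Sema4g (plus strand, chr19:44989094-44989393) and the proteasome subunit gene Psma2 (plus strand, chr13:14612992-14613291) with lost peaks, and that of Duxf3, a copy of the embryonic transcription factor Dux, with a new peak (minus strand, chr10:58233040-58233339).
Vmn2r29: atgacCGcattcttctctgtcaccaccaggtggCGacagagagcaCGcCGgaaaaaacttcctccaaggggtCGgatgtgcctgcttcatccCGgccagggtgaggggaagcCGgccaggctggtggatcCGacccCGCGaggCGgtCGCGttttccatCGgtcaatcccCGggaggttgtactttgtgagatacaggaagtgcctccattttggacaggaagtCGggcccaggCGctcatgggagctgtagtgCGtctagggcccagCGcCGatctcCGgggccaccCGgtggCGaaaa
Sema4g: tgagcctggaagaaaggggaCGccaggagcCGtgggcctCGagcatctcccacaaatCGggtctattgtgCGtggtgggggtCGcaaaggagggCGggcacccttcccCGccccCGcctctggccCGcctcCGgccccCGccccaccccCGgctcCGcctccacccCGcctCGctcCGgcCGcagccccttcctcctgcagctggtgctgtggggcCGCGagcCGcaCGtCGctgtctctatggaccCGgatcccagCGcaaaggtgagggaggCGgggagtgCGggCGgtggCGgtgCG
Psma2: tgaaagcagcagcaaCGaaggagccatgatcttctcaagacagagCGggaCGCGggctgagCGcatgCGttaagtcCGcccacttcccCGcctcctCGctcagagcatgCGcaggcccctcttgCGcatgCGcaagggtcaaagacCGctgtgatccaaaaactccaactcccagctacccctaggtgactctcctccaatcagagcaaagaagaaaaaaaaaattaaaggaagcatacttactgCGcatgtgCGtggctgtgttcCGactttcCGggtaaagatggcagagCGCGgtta
Duxf3: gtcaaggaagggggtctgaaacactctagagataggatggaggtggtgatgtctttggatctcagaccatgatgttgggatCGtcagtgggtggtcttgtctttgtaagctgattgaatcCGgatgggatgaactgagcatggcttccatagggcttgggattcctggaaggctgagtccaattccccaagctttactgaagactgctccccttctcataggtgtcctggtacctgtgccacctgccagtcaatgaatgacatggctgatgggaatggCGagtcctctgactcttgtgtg
The 5 dpi peak of Vmn2r29 covered the last 198 bases of its window, with 17 of the 23 CGs. The 3 dpi peak of Vmn2r29 did not reach this window, so it covered none of these CGs. The lost peaks covered the first 55 bases at Sema4g, with 3 of 30 CGs, and the last 112 bases at Psma2, with 6 of 19. Another lost peak, assigned to Kpna1, covered all 300 bases of a window of Gm15564 (not printed), with 6 of 6 CGs. The new peak covered the first 52 bases at Duxf3, with 0 of 3 CGs. Over all 32841 windows the median was 7 CGs (quartiles 3 and 20), and 94.6% held at least 1. Few peaks reached such a window at all: 5 kept peaks on each day, 6 lost and 5 new ones. Where a peak stopped short of the window, its CGs were not counted. Dux is a gene of many near-identical copies, so the reads of that peak may come from other copies.

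A lost peak also lay in front of Mir138-1, one of the genes for miR-138, a microRNA enriched in the brain that restrains the growth of dendritic spines in rat neurons. The peak (chr9:122682143-122682757) ended 119 bp before the hairpin. The mature sequence is printed with its seed, bases 2 to 8, in capitals.
mmu-miR-138-5p: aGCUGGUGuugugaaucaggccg

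Fewer than 1 in 2 places were listed on both days. The kept share was 40.3% of the 3 dpi peaks (37.6 to 43.1) and 44.1% of the 5 dpi peaks (41.1 to 47.1), and the kept peaks made up 505 overlapping pairs, since 6 peaks at 3 dpi and 18 at 5 dpi met more than 1 peak of the other day. By length the kept peaks weighed more, with 49.5% of the 0.816 Mb covered at 3 dpi and 54.5% of the 0.795 Mb at 5 dpi. The overlap had no thin edge: the smallest was 68 bp and the median 552 bp. On the other side of the threshold the smallest gap was 21 bp, and 46 lost peaks (6.22%) and 49 new ones (7.97%) lay within 10 kb of a peak of the other day.

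**Figure D1:**
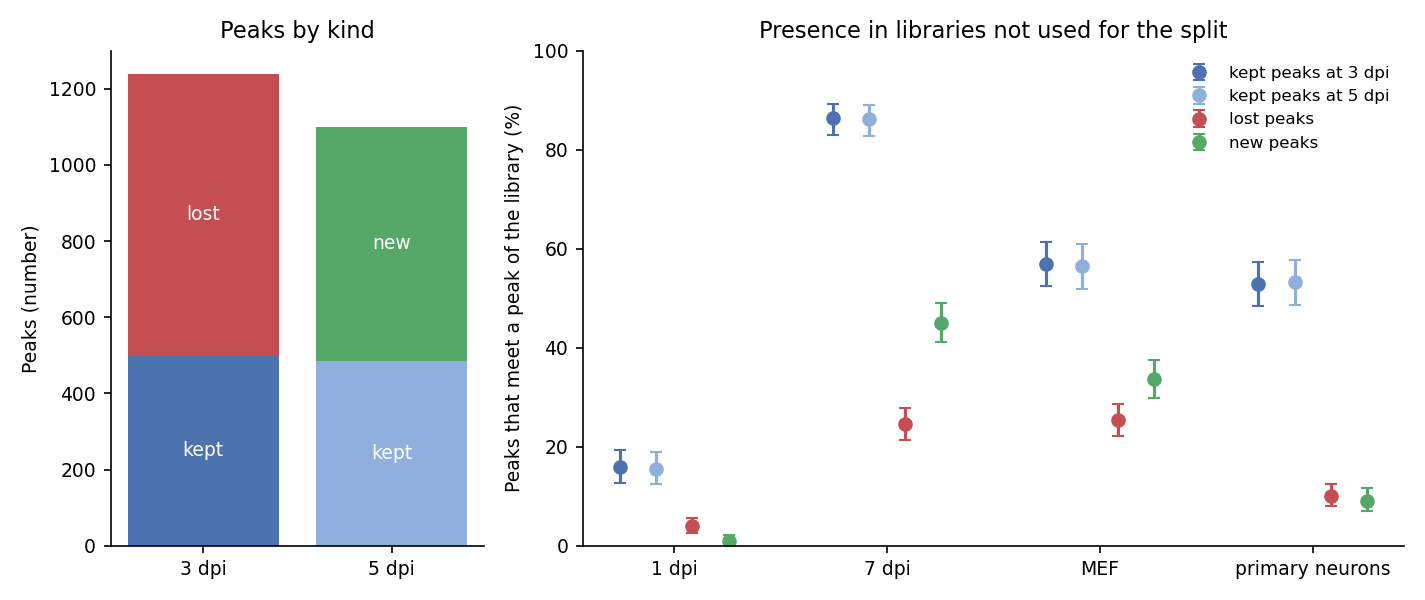
Left, the number of peaks at 3 and 5 dpi, stacked by kind. Right, the share of each kind (percent of peaks, points with exact 95% intervals) that meets a peak of 4 libraries the split did not use: 86.4 and 86.2% of kept peaks, 24.5% of lost and 45.0% of new ones meet a 7 dpi peak.

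Kept peaks were longer and held more tags than lost or new ones, at much the same median fold enrichment but with a wider spread of it. The median length was 640 bp for kept peaks at 3 dpi (623 to 675) and 713 bp at 5 dpi (669 to 737), against 482 bp for lost (480 to 489) and 527 bp for new peaks (517 to 540). The shortest length in the lists is 480 bp, and 49.0% of lost peaks had it (45.3 to 52.7), 25.0% of new ones (21.7 to 28.7), but only 7.41% and 5.15% of the kept ones. Peaks of at least 1000 bp made up 18.6% and 23.1% of the kept peaks, 2.71% of the lost and 2.76% of the new ones.

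The height at the summit followed the same order. The median was 51 tags for kept peaks at 3 dpi (48 to 56) and 54 at 5 dpi (51 to 57), 38 for lost (37 to 39) and 42 for new peaks (41 to 43). Median fold enrichment, the authors' ratio of a peak to its background, was 4.94 and 5.12 for kept, 5.10 for lost and 5.12 for new peaks, with intervals that all overlap. The extremes did lie among the kept: 10 kept peaks at 3 dpi and 18 at 5 dpi reached 10-fold, against 1 lost and 2 new ones. At least 7-fold were 16.0% and 19.2% of kept, 10.7% of lost and 9.11% of new peaks. Under 2-fold were 7.01% and 7.63% of kept, 1.49% of lost and 1.95% of new peaks. A longer peak has more bases with which to meet another, and how much this adds to the lengths of kept peaks was not tested.

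**Figure D2:**
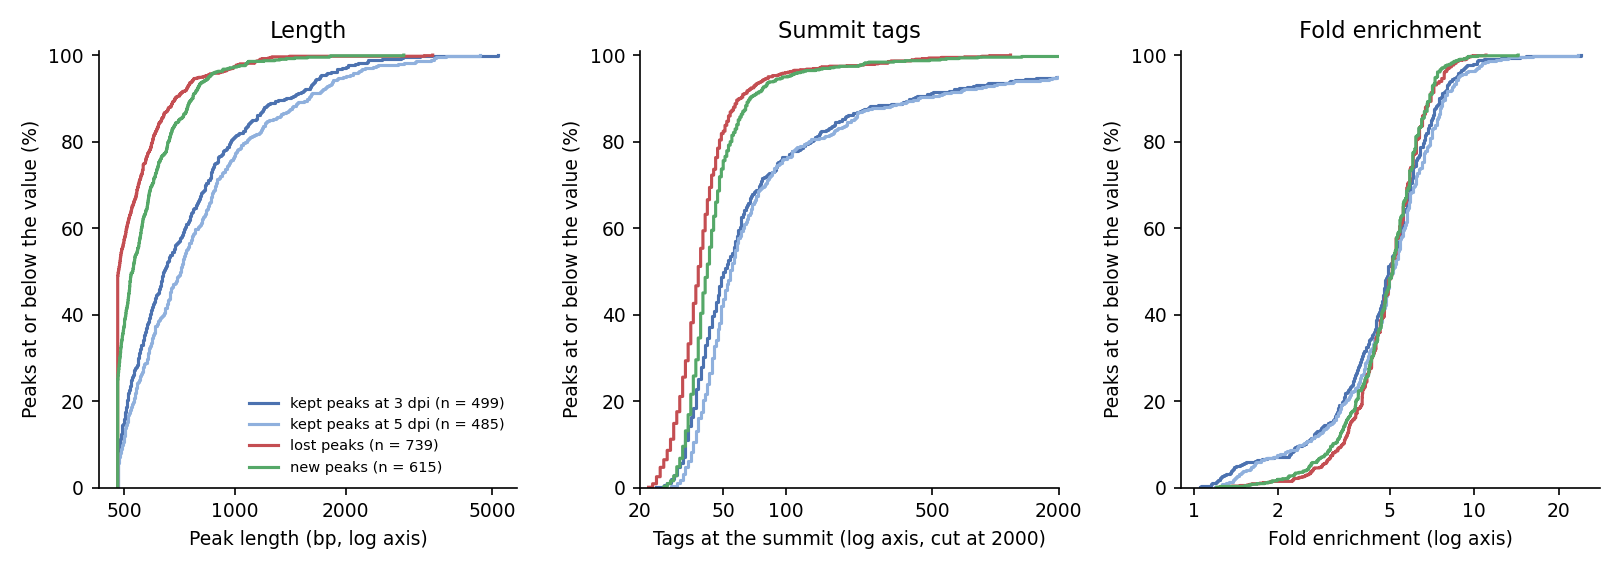
Share of peaks (percent) at or below each length in bp, number of summit tags and fold enrichment, all on log axes, for kept peaks at 3 dpi (n = 499) and 5 dpi (n = 485), lost (n = 739) and new peaks (n = 615). The curves of lost and new peaks stand to the left of those of kept peaks for length and tags, and the 4 curves for fold enrichment cross near 5.

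Position along genes differed less. Most peaks were intergenic in the authors' annotation: 74.9% and 74.6% of kept, 76.0% of lost and 70.6% of new peaks. Gene bodies held 23.4% and 23.9% of kept peaks, 21.8% of lost (18.9 to 24.9) and 27.0% of new ones (23.5 to 30.7). Promoters held 8 and 7 kept peaks (1.60 and 1.44%), 16 lost (2.17%) and 15 new ones (2.44%), and these intervals overlap. The median distance to the TSS was 52.0 kb for lost peaks (44.5 to 66.6) and 41.2 kb for new ones (34.4 to 46.5), with overlapping intervals. For kept peaks it was 33.5 kb (27.7 to 40.5) and 34.1 kb (29.0 to 41.8), both intervals below that of lost peaks. More than 200 kb from a TSS lay 19.8% of lost peaks (16.9 to 22.8), 10.6% of new (8.25 to 13.3) and 8.42% and 8.66% of kept ones. The annotation does not tell exons from introns.

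Within the 505 pairs the fold enrichment was on average close on both days. It was higher at 5 dpi in 303 pairs and lower in 202 (60% higher, 55.6 to 64.3), and the median log2 ratio of 5 to 3 dpi was 0.10 (0.06 to 0.14). The tags were more numerous at 5 dpi in 337 pairs, and the peak was longer in 307. Beside this stand the lowest backgrounds, read as tags plus 1 over fold: 6.27 at 3 dpi and 6.63 at 5 dpi, a ratio of 1.06, or 0.08 on the log2 scale. Whether depth adds to the higher tags was not tested. Summits lay a median of 92 bp apart, all 505 pairs had the same gene on both days, and 503 the same class.

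Few pairs differed by more than 2-fold: 6 were higher at 5 dpi and 7 at 3 dpi. The largest ratio toward 5 dpi was at the intergenic peak assigned to the histamine receptor gene Hrh4, with 4.22-fold enrichment and 34 tags at 3 dpi and 12.4 and 89 at 5 dpi, a ratio of 2.95. The intergenic peak assigned to Cpm, which encodes a membrane carboxypeptidase, had 2.92-fold enrichment at 3 dpi and 7.07 at 5 dpi, a ratio of 2.42. Near the chemokine gene Ccl28 the values were 2.33 and 4.96, and the summit tags 600 and 4750. These summits lay 1417 bp apart. The same 5 dpi peak also met another 3 dpi peak, with 3.37-fold enrichment and 3734 tags, so this pair does not compare 1 spot. In the other direction, the peak near Snrpe, a core gene of the spliceosome, had 9.29 at 3 dpi and 2.54 at 5 dpi, a ratio of 3.66. Its tags were 144 and 127, at summits 504 bp apart. Near Ramp3, a partner of the calcitonin receptor-like receptor, the values were 6.86 and 2.62. In the body of Cdk8, the kinase of the Mediator complex, they were 14.6 and 5.93, with 209 and 82 tags, and near the ubiquitin ligase gene Herc1 7.34 and 3.37. The summits lay 36 bp apart at Cdk8, but 323 bp at Hrh4, 365 at Cpm, 340 at Ramp3 and 491 at Herc1. Fold and tags of such pairs are thus read at different spots. The background behind each fold is the authors' own, and its part in these ratios was not tested.

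**Figure D3:**
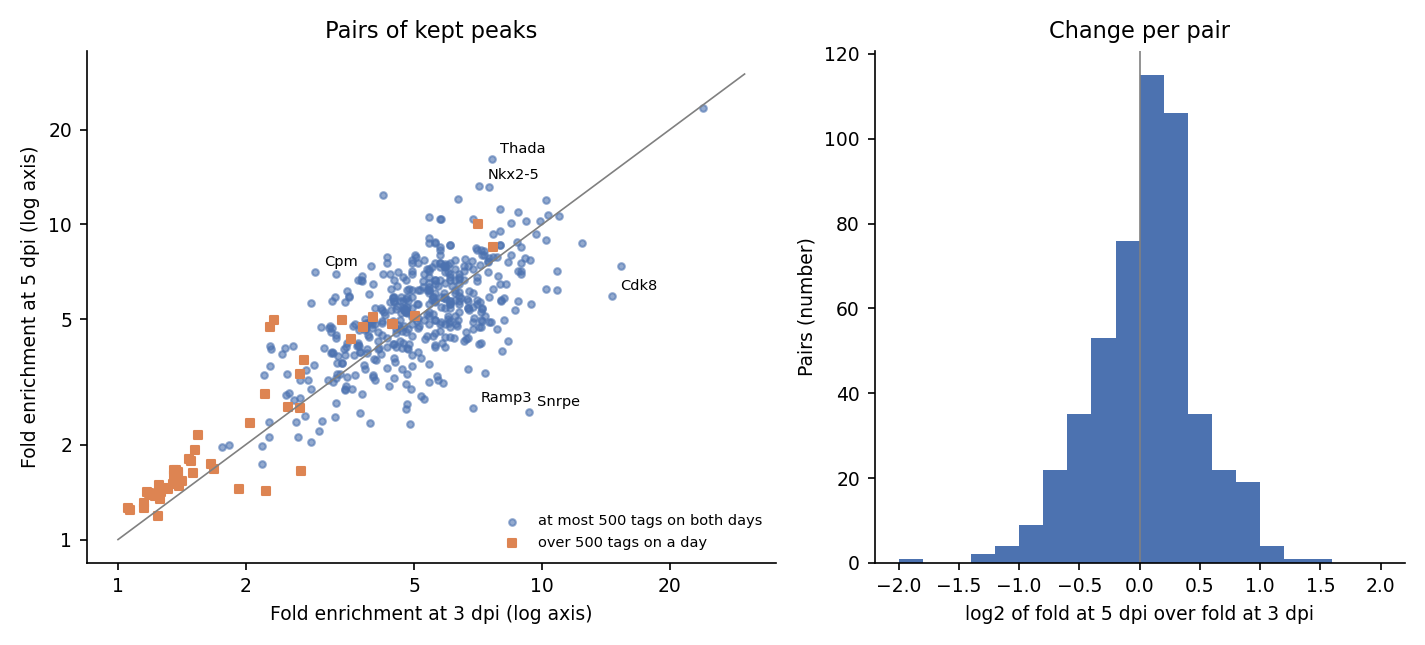
Left, fold enrichment at 5 dpi against 3 dpi (log axes) for the 505 pairs of kept peaks, with the line of equal values; squares are pairs with over 500 tags on a day. Right, the number of pairs by log2 ratio of 5 to 3 dpi, of which 303 lie above 0 and 202 below.

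The kept peaks that lead in fold enrichment were found in other libraries too. That held for all but 7.41% of kept peaks at 3 dpi and 7.63% at 5 dpi. In the body of Thada, a gene rearranged in human thyroid adenomas (chr17:84461333-84464207 at 5 dpi), fold enrichment was 7.62 at 3 dpi, 16.1 at 5 dpi, 14.0 at 7 dpi, 12.9 in primary neurons and 2.71 in MEFs, with no peak at 1 dpi. In the body of the scaffold gene Pdzk1 (chr3:96843599-96845249 at 3 dpi) it was 6.11 in MEFs, 6.55 at 1 dpi, 15.3 at 3 dpi, 7.39 at 5 dpi and 8.11 at 7 dpi, with none in primary neurons. At both places the MEF value was below that of either day, but these peaks were named for a high fold at 3 or 5 dpi.

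Near Nkx2-5, a gene that directs heart development (chr17:26831373-26832119 at 5 dpi, 9.87 kb from the TSS), the values were 7.11 at 3 dpi, 13.3 at 5 dpi, 10.9 at 7 dpi and 6.11 in primary neurons, with no peak at 1 dpi or in MEFs. The peak assigned to Alx4, a gene of skull and limb development, lay 82.2 kb from the TSS (chr2:93559865-93560634 at 5 dpi) and had 7.81 in MEFs, 7.50 at 3 dpi, 13.1 at 5 dpi, 21.5 at 7 dpi and 7.32 in primary neurons. At both places the 5 dpi value was the higher of the 2 days, but it is also the value for which they were named. Kept gene body peaks of high fold also lay in Snx9, a sorting nexin of endocytosis (12.4 at 3 dpi, 8.75 at 5 dpi), in the zinc finger gene Zfp473 (10.2 and 11.9) and in Dlgap2, which encodes a scaffold of the postsynaptic density (10.9 and 10.7).

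Of the 5 leading lost peaks 3 were listed again at 7 dpi. Of all lost peaks 24.5% were, and of those at 7-fold and over 29.1%. The highest lay in the body of Sdk1, a synaptic adhesion gene (chr5:141543481-141544210), with 11.0 at 3 dpi, 6.66 at 7 dpi and 7.86 in primary neurons. An intergenic peak near Zfand4 (chr6:116250931-116252010) had 9.89 at 3 dpi, 6.83 at 7 dpi, 8.04 in primary neurons and 12.1 in MEFs. The peak in the body of Armc3 had 9.73 at 3 dpi and 4.21 at 7 dpi. At these places the mark was thus listed before and after 5 dpi. The peak near Cep164, a gene of the centriole and cilium, had 9.57 and met none in any other library. That near Brms1l, a gene of a histone deacetylase complex, had 9.41 (level with 2 others) and met peaks in MEFs (7.06) and primary neurons (7.50). Further lost gene body peaks of high fold lay in Spata16 (9.31), Gpr108 and the vomeronasal receptor gene Vmn2r68 (8.77 each), all of 480 bp and none in another library.

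All 5 leading new peaks were listed again at 7 dpi. Of all new peaks 45.0% were, and of those at 7-fold and over 69.6%. Near Trim56, an antiviral ubiquitin ligase gene (chr5:137151862-137152659), fold enrichment was 14.3 at 5 dpi, 14.0 at 7 dpi and 9.21 in MEFs, with no peak at 1 or 3 dpi. Near Wdr11 it was 10.3 at 5 dpi and 8.41 at 7 dpi. In the body of Mob4, a gene of the striatin phosphatase complex (chr1:55146829-55147334), it was 9.51 at 5 dpi, 15.1 at 7 dpi and 7.68 in primary neurons. In Fam184a the values were 9.47 and 7.18 on the 2 later days, and in Lmf1, a gene needed to fold lipases, 9.21 and 9.81, with 4.38 in MEFs. A peak in Fam163b had 8.75, 8.93 at 7 dpi and 7.10 in MEFs. None of these new peaks met a 1 dpi peak, and among all new peaks only 6 of 615 did.

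In the libraries that played no part in the split, kept peaks were met most often, and the order of lost and new peaks differed by library. A 7 dpi peak was met by 86.4% of kept peaks at 3 dpi (83.0 to 89.3) and 86.2% at 5 dpi (82.8 to 89.1), by 45.0% of new peaks (41.1 to 49.1) and by 24.5% of lost ones (21.4 to 27.8). The intervals of the last 2 do not overlap. Length moved with this: of lost peaks of 480 bp 8.29% met a 7 dpi peak, against 40.1% of longer ones, and of new peaks 29.9% against 50.1%. Within each length class the new peaks had the larger share. Fold moved with it among new peaks, from 40.7% below 5-fold to 69.6% at 7-fold and over, and less among lost ones, from 21.6 to 29.1%.

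MEFs gave the order seen at 7 dpi, and 1 dpi the reverse for lost and new peaks. Primary neurons had a peak at 52.9% and 53.2% of kept places, 10.01% of lost (7.94 to 12.4) and 9.11% of new ones (6.95 to 11.7), and the intervals of lost and new peaks overlap. MEFs had one at 56.9% and 56.5% of kept, 25.3% of lost (22.2 to 28.6) and 33.7% of new peaks (29.9 to 37.5). With peaks of at least 5-fold in all lists these shares were 33.2% and 33.7% of kept peaks. They were then 16.5% of lost (13.2 to 20.3) and 21.4% of new peaks (17.4 to 25.9), with intervals that overlap. The MEF shares were not split by length. The MEF list is far longer, with 176853 peaks over 90.2 Mb, against 549 peaks and 0.397 Mb in primary neurons. At 1 dpi, where 262 peaks were listed, the shares were 15.8% and 15.5% of kept, 3.92% of lost (2.64 to 5.59) and 0.976% of new peaks (0.359 to 2.11). No peak in any of these 4 libraries was found for 56.0% of lost (52.4 to 59.6), 37.6% of new (33.7 to 41.5) and 7.41% and 7.63% of kept peaks.

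Promoter peaks could be set beside graded values, since the authors list promoter regions with more reads (hyper) or fewer reads (hypo) than MEFs on each day. Both comparisons use the same MEF library. On both days 1 read was worth 1.32 units of the deposited signal, or 1.75 times a MEF read. The same factor on both days does not show equal depth, which is unknown, so reads of the 2 days may differ by depth too. Regions were drawn separately on each day, differ in length, and can be several under 1 peak, so no total over them is given. They and the peaks come from the same reads, and these values are no independent check of the split. Hyper regions at 3 dpi were listed for 13.6% of the 21231 genes named in the files and hypo regions for 42.5%, and at 5 dpi for 21.0% and 42.3%.

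Of the 16 lost promoter peaks 15 met a hyper region at 3 dpi, and 9 still met one at 5 dpi. Of the others at 5 dpi, 4 met a hypo region alone and 3 no listed region. At Zfp799, a zinc finger gene, the peak had 8.45-fold enrichment, and the region under it held 44 reads at 3 dpi and 3 at 5 dpi, against 27 in MEFs both times. At Kcnd3, which encodes the potassium channel Kv4.3, there were 23 reads at 3 dpi against 0 in MEFs, and at 5 dpi 0 against 15 in a region that only partly coincides. At Arl9, a small GTPase gene, there were 2 hyper regions at 3 dpi, with 39 and 11 reads against 1 each in MEFs, and at 5 dpi a hypo region that overlaps both, with 9 against 61.

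At other lost promoter peaks a 5 dpi region was still a hyper one. The trace amine receptor gene Taar1 had a hyper region of 540 bp with 36 reads at 3 dpi and one of 380 bp with 16 at 5 dpi, both against 0 in MEFs, beside a hypo region on each day (8 and 10 reads against 61). The splicing factor gene Prpf18 had 36 reads over 600 bp and 29 over 480 bp, against 2. Sp7, the transcription factor of bone formation, had hyper regions of 400 bp with 31 reads and of 200 bp with 9 at 3 dpi, and 1 of 220 bp with 13 at 5 dpi, all against 0, and a hypo region on both days. In front of Mir138-1 there were 2 regions at 3 dpi, each with 22 reads, against 4 and 0 in MEFs, and 1 of 220 bp at 5 dpi with 9 against 0. At Sema4g and Psma2 27 and 23 reads were listed at 3 dpi against 0, and no region at 5 dpi. The remaining lost promoter peaks include 3 at Rn4.5s and 1 at Rn45s, repeated RNA genes whose copies cannot be told apart. All of these are among the 9 lost promoter peaks that still met a hyper region at 5 dpi.

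Like the lost ones, most new promoter peaks met a region with more reads than MEFs already at 3 dpi. Of the 15 new ones, 13 met a hyper region at 3 dpi and 13 at 5 dpi. Of the 8 kept promoter peaks at 3 dpi 5 met one at 3 dpi, and of the 7 at 5 dpi 4 met one at 5 dpi. Zfp872, a zinc finger gene, had 17 reads over 380 bp at 3 dpi and 35 over 520 bp at 5 dpi, against 0 in MEFs. Parvg, which encodes the adhesion protein gamma-parvin, had 12 over 280 bp and 30 over 420 bp, against 1. The selenoprotein gene Sepn1 had 2 regions on each day, with 10 and 9 reads at 3 dpi and 9 and 19 at 5 dpi, where the last had lengthened from 240 to 400 bp. At Prmt10, an arginine methyltransferase gene, there was 1 region with 20 reads at 3 dpi and, at 5 dpi, 1 with 23 and another with 10. At Fbf1, a centriole gene, there were 2 regions at 3 dpi, with 9 and 20 reads, and 3 at 5 dpi, with 20, 14 and 14. Cdk15 met a hypo region at 3 dpi, with 15 reads against 74 in MEFs, and 2 hyper regions at 5 dpi, with 17 and 16 against 0. Reads did not rise at every new peak: Gm20743 had 31 over 560 bp at 3 dpi and 32 over 420 bp at 5 dpi. The 2 that met no listed region at 5 dpi, Spata19 and Sp110, met hyper regions at 3 dpi with 31 and 30 reads.

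**Figure D4:**
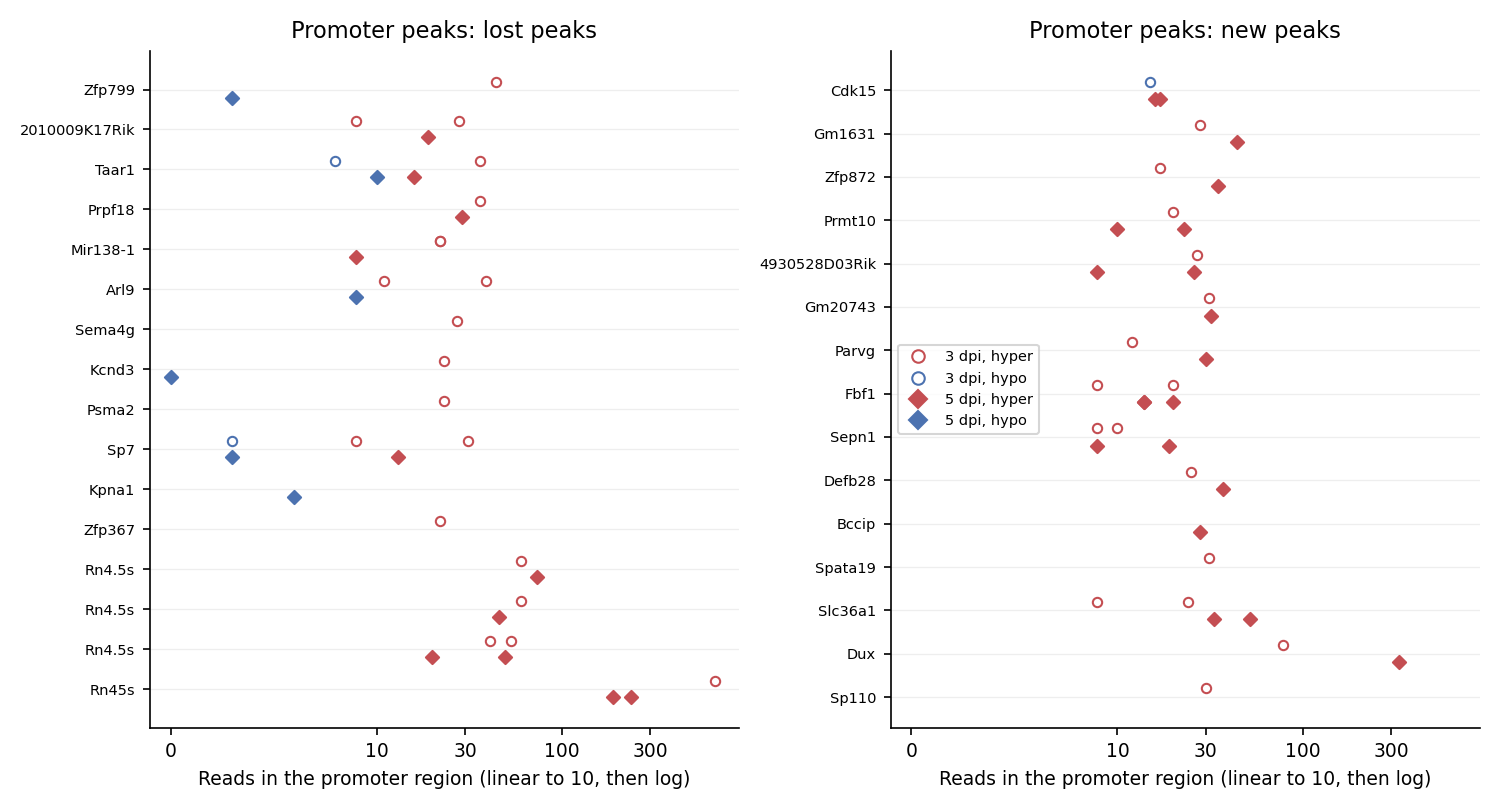
Reads in every listed promoter region that meets a lost (left) or new (right) promoter peak, at 3 dpi (open circles) and 5 dpi (filled diamonds), red for hyper and blue for hypo against MEFs; the axis is linear to 10 and logarithmic above, and regions differ in length. The diamonds of Zfp799 and Kcnd3 stand at 3 and 0 reads.

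The same gene could be listed on both days through different places. A peak was assigned to 1017 genes at 3 dpi and 901 at 5 dpi, with 463 on both days, which is 45.5% of the first and 51.4% of the second. Kept peaks were assigned to 407 genes (1.92% of the 21231 named in the files), lost peaks to 663 (3.12%) and new peaks to 554 (2.61%). Of these, 75 genes had both lost and new peaks, 56 of them with no kept peak, so another place of the same gene was listed on each day. These 3 percentages are the background for the lists below, which also count members not named in the files. An intergenic peak is assigned to a gene that can be far away, and with peaks at promoters and in gene bodies alone the counts were 112, 174 and 173 genes.

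Neuronal genes had peaks of all 3 kinds. Of 26 genes of neuron identity and cytoskeleton 2 had a kept peak, 0 a lost and 2 a new one. Rbfox3, which encodes the neuronal nuclear protein NeuN, had 2 kept peaks in its body, with 6.70 and 7.39 at 3 and 5 dpi for the first and 6.58 and 7.74 for the second. Nova1, a neuronal splicing factor gene, had 6.54 and 7.39. The new peaks were those of the neurofilament gene Nefh (5.28, intergenic) and of Rbfox2 (3.87, intergenic). Of 43 neurogenic transcription factors 3 had a kept, 3 a lost and 2 a new peak, every one of them intergenic. Prox1 had a kept peak 129.5 kb away (7.86 at 3 dpi, 6.87 at 5 dpi), and Myt1l, a factor used to make induced neurons, a new one 301 kb away (5.20). Bcl11b had peaks of all 3 kinds.

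Synaptic, channel and guidance genes followed, read against the same background. Of 45 excitatory synapse genes 4 had a kept, 6 a lost and 3 a new peak. The lost ones included the body of the kainate receptor gene Grik2 (7.18) and 2 places at the glutamate receptor gene Grm7 (6.54 and 6.22). A new peak lay in the body of the scaffold gene Shank2 (5.23). Of 45 voltage-gated ion channel genes 0 had a kept, 5 a lost and 1 a new peak. Among them were Kcna4 (5.90, 158 kb away), Kcnj3 (5.26, 268 kb away) and Kcnd3 at its promoter (4.31). Kcnh5 had a lost peak (4.89) and a new one with 370 tags but 1.91-fold enrichment. Of 32 inhibitory synapse genes 0 had a kept, 2 a lost and 2 a new peak, the neurexin gene Nrxn2 (lost, 5.10, gene body) and Vip (new, 6.79, intergenic) among them. Of 30 vesicle release genes 1 had a lost peak, Unc13c (3.49, gene body), and 0 another. Of 59 axon guidance genes 2, 4 and 2 had a kept, lost and new peak, led by Epha7 (lost, 8.29, 445 kb away) and Plxna2 (new, 5.73). These shares rest on single counts and were not compared by a test.

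Adhesion, signalling and developmental genes had a like mixture. Of 36 protocadherins and cadherins 2, 6 and 4 had a kept, lost and new peak. Cdh4 had a lost peak (6.54) and 2 new ones (5.07 and 4.20), all in the gene body, and Cdh13 lost peaks in the body (6.54 and 5.42) and a new one outside it (4.77). Cdh22 had a kept peak (7.18 and 4.98). Of 65 Wnt and BMP genes 4, 6 and 3 did. Those kept included the intergenic peaks of the ligand gene Bmp2 (7.97 and 9.51) and the receptor gene Fzd9 (7.95 and 8.63), Bmp7 had 2 lost ones (7.34 and 4.63), and Tcf7l1 a new one (6.11). Of 45 homeobox and Hox genes, of which 34 are named in the files, 1, 3 and 1 did. Msx2 (5.90) was lost, and Tshz2 had a lost (4.47) and a new peak (3.81). Of 36 imprinted genes 2, 1 and 3 did, with kept peaks at Peg13 (7.50 and 4.89) and Zim1 (5.58 and 6.04), a lost one at Dlk1 (5.93) and a new one in the body of Gnas (6.14).

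Of 54 fibroblast and extracellular matrix genes 1, 3 and 3 had a kept, lost and new peak. Vim, which encodes the filament vimentin, had a lost peak 35.7 kb away (8.29) and a new one 91.6 kb away (6.34), and a new one was assigned to Tgfbr2 (6.04). Of 39 cell cycle genes 3, 0 and 1 did: Cdk8 (above), Cdk1 (5.74 and 7.998) and the inhibitor gene Cdkn2a (4.56 and 7.07, near 3 kb from the TSS) with kept peaks, and Cdk6 (5.80) with a new one. Of 27 genes that write, erase or read DNA modification only Tet2, an enzyme that makes the mark, had a peak, a lost one 186 kb away (5.90). Markers of other cell types were examined as well. Astrocyte, oligodendrocyte, and microglia and blood markers had 0 of 8 members each with any peak. Of the microglia and blood markers only 6 are named in the files. Of all named genes 1.92, 3.12 and 2.61% had a kept, lost and new peak, so 0 in lists this short is uninformative. Of 8 endothelial markers 2 had a kept, 0 a lost and 3 a new peak: Erg (kept and new), Kdr (kept), Flt1 and Vwf (new). DNA marks at such genes do not count cells.

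**Figure D5:**
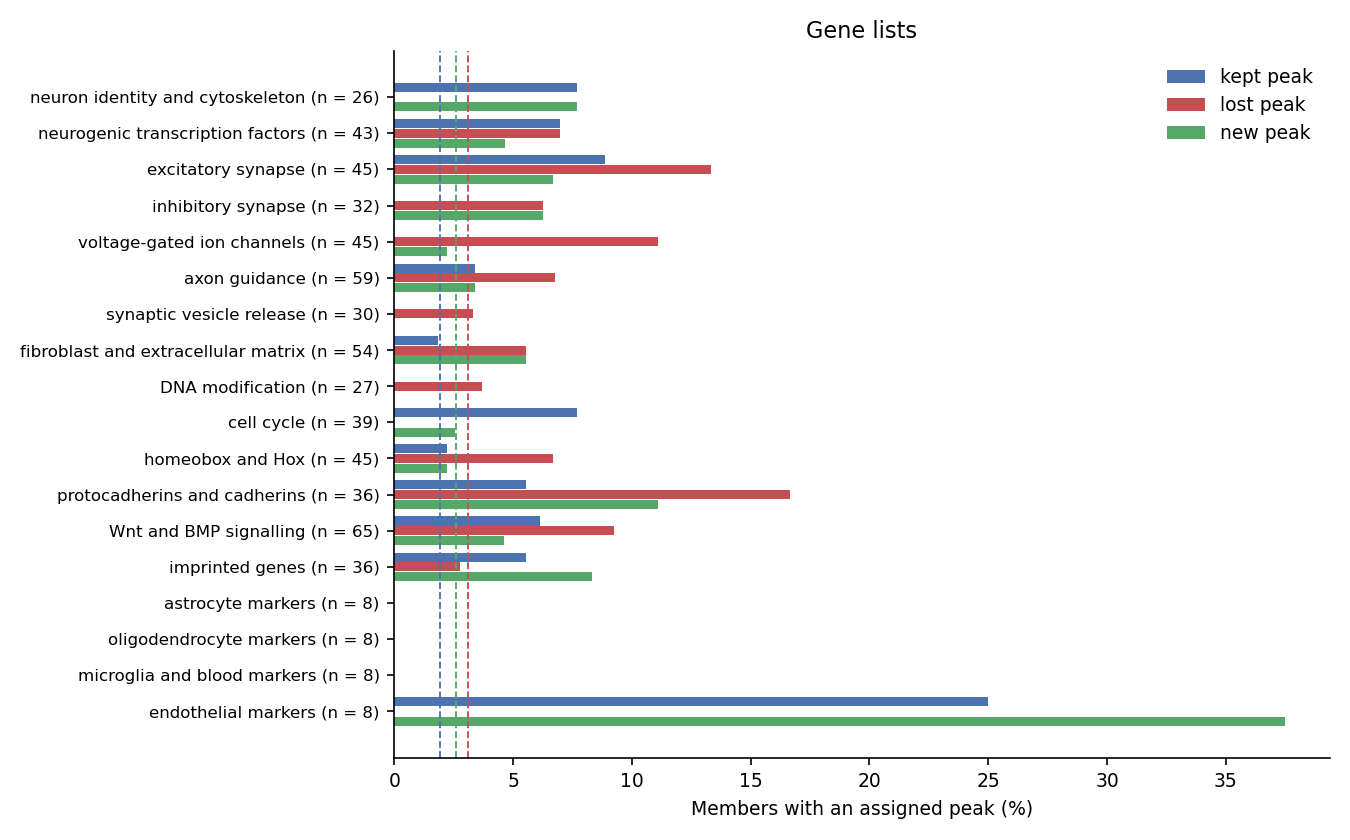
Share of members (percent) of each of the 18 gene lists with a kept, lost or new peak, with dashed lines at the share of all genes named in the files: 1.92% kept, 3.12% lost and 2.61% new. Bars of lists with 8 members rest on single genes. The bars count all members, also those not named in the files, and the lines only named genes. Bars of lists with unnamed members, such as homeobox and Hox (34 of 45 named) and cell cycle (34 of 39), thus stand lower against the lines.

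Some genes had a run of places that differed between the days. Gpm6a, which encodes a neuronal membrane glycoprotein, had 6 new peaks and 0 lost ones beside 2 kept on each day. Its 8 peaks at 5 dpi all lay outside the gene, at distances of 164 to 427 kb, and 7 of them met a 7 dpi peak. A MEF peak was met by 6 of the 8, among them 4 of the 6 new ones, and a peak of primary neurons by 1. Erdr1, whose peaks were listed on the Y chromosome, had 19 kept peaks at 3 dpi and 14 at 5 dpi, with 2 lost and 6 new. Ajap1 had 2 lost and 3 new, and Gatsl2 3 lost and 1 new. Zfp369 had 4 lost peaks and 0 new, none of them met in any other library, whereas the pseudogene Pisd-ps1 had 4 new and 0 lost, all met at 7 dpi.

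The tallest peaks were kept, and their fold enrichment was low. Over 500 tags stood at the summits of 44 kept peaks at 3 dpi and 47 at 5 dpi, 5 lost and 7 new ones, with a median fold enrichment of 1.39, 1.64, 1.37 and 1.58. They held 98.6% and 98.9% of all summit tags of kept peaks. The tallest was assigned to Lrrc4c from 1199 kb away, with 953377 tags at 3 dpi and 1215308 at 5 dpi at fold enrichments of 1.06 and 1.26, and 1599979 tags in MEFs. Among new peaks the tallest was assigned to Mir101c (16148 tags, 1.25-fold). Without all peaks over 500 tags the kept medians of length and tags stayed above those of lost and new peaks.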

How the data were processed

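DNA of 6 hMeDIP libraries of ICR mouse cells, 1 per group, was sequenced by the authors, and their annotated peak lists were used as deposited. Groups came from titles and source names. Bowtie2 2.1.0, CASAVA and the mm10 build are named in the submitters' processing notes. No source used here gives the peak caller, its settings or the input it used. The fold enrichment is a ratio that the authors deposited, the summit signal that they deposited is a count of tags, and the deposited q-value column holds −log10 of q. The promoter signal that the authors deposited consists of whole reads times 1 factor per library, found from the values (100% whole within 0.1). The 4 promoter lists of 3 and 5 dpi were used; the other 6 were not used here. With no replicates, no count model was fitted.

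Peaks were made unique by identifier, and overlap meant at least 1 bp. The 2 peaks at 5 dpi with 2 classes took the first. Gene counts used every listed gene. Shares have exact Clopper-Pearson and medians order-statistic intervals at 95%, for counting error only. The split was tested on simulated data. Scripts ran in python 3.11.15 with scipy 1.17.1, pandas 2.3.3, numpy 2.4.6 and matplotlib 3.10.9. The members and the 18 gene lists were chosen with earlier results of these data known. Named were the 5 peaks of each kind with the highest fold and no predicted gene symbol, up to 6 lost and new promoter peaks and 5 gene body peaks, the 4 pairs with the largest ratio each way, up to 4 members per list, the genes with most lost and new peaks, and the tallest peak of each kind. Further lost and new promoter peaks, the genes with printed sequence and a few more list members were named after their values were seen. Of the 8 named pairs 1 and of the other named peaks a few are not reported here. Alternatives were stricter overlap, stronger peaks, no pile-ups over 500 tags, standard chromosomes, promoters by distance, all listed genes, and promoters and gene bodies alone.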

Additional observations from a re-analysis of the deposited data

How the results depend on the processing

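The share of kept peaks moved with the overlap rule and with peak strength. Asking for 50% of both lengths gave 34.2% at 3 dpi and 38.5% at 5 dpi, and summits at most 250 bp apart 31.7% and 35.6%. Peaks of at least 5-fold in both lists gave 29.4% and 32.5%, with 442 lost and 383 new peaks, and of at least 7-fold 27.7% and 29.5%, with 115 and 105, fewer by construction. With the 5-fold minimum 0% of kept peaks on either day and 1.04% of new ones lay at promoters, 26.02% of lost peaks lay in gene bodies, and 79.3% and 79.9% of kept, 29.0% of lost and 49.1% of new peaks met a 7 dpi peak. With 50% of both lengths 79.0% and 79.4% of kept peaks did. Under both settings the share was larger for new than for lost peaks. Genes with a kept, lost or new peak numbered 112, 174 and 173 when intergenic peaks were left out. The other 45 values recomputed for these results moved by less than their interval or, for counts, by less than 1.5 times. Of the remaining values, without peaks over 500 tags 4 moved by more than their interval: the median fold of kept peaks at 3 dpi to 5.25, their share met in primary neurons to 48.3%, and the shares met at 1 dpi to 12.3% and 11.9%. The MEF share moved from 25.3% to 18.8% for lost and from 33.7% to 22.3% for new peaks with 50% of both lengths, where their intervals overlap. No paired analysis was possible because each group has 1 library. The depth of each library is unknown, and its part in the split was not tested.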

Other observations

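The sex and mitochondrial chromosomes differed between the days. On the Y chromosome 51 peaks were listed at 3 dpi and 24 at 5 dpi. Of these 22 and 17 were kept, so 29 were lost and 7 new. Kept peaks assigned to Erdr1 alone numbered 19 and 14. The X chromosome had 65 peaks at 3 dpi and 48 at 5 dpi, of which 32 and 27 were kept. On the mitochondrial genome 4 peaks were listed at 3 dpi and 0 at 5 dpi, with fold enrichments of 1.24 to 1.89 and 306 to 937 tags. On chromosome 17 kept peaks made up 53.8% on both days, on chromosome 6 28.3% and 31.7%. Among kept peaks at 3 dpi 10.6% (8.06 to 13.7) met a peak in all 4 other libraries, among lost ones 1 of 739, and among new ones 0 of 615, which allows a share of up to 0.598%. Peaks met in MEFs and in none of the other 3 libraries made up 12.4% of lost and 14.5% of new peaks.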
